A study of Mus musculus with 10 samples.

Results

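The AP-1 transcription factors were examined in whole skin of C57BL/6 mice, aged 5 months, from the STAT3cKO group, in which STAT3 was ablated in keratinocytes, and from wild-type (WT) mice. The family was taken by gene symbol as 10 members, the Fos genes Fos, Fosb, Fosl1 and Fosl2, the Jun genes Jun, Junb and Jund, and the related factors Atf3, Batf and Maff, out of 23282 entries per library. All 10 symbols were found. Each group had 5 libraries. The sources used here give no Cre line, sex, litter, hair cycle phase or hour of harvest. The family was selected on the difference between its STAT3cKO and WT values in these same libraries, so the values of its members are given below as a description. The members' limma calls and intervals, also printed below, rest on the same values, so no conclusion is drawn from them. The labels do not tie libraries to separate mice. The p-values given for other genes therefore set the group difference against the variation between these libraries, which may be technical in part. If libraries share mice, these p-values may be too small.

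AP-1 is a dimer of basic leucine zipper (bZIP) proteins. Jun proteins pair with each other or with Fos proteins, while Fos proteins need a Jun partner to bind DNA. Fos, Fosb, Jun, Junb and Atf3 belong to the immediate early genes, which growth factors, cytokines, injury and stress induce through MAP kinases without new protein synthesis. Fosl2 and Jund are expressed more steadily. In epidermis AP-1 dimers act on genes of keratinocyte proliferation, terminal differentiation and inflammation. STAT3 is a cytokine-activated transcription factor for which Fos and Junb are known targets.

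The promoters of Fos, Fosb, Jun, Junb and Atf3 are shown, the members named above as immediate early genes. These are also the members with the largest positive changes below, so the choice is not independent of the values. The sequences come from RefSeq's GRCm38.p6 annotation, the same build as mm10, and run from 250 bases before the start site to 50 bases from it, on the gene's own strand. Capitals mark the motif TGACG, the core of the cyclic AMP response element, and TGACATCA, an AP-1-like octamer.
Fos, chr12:85473640-85473939, plus strand: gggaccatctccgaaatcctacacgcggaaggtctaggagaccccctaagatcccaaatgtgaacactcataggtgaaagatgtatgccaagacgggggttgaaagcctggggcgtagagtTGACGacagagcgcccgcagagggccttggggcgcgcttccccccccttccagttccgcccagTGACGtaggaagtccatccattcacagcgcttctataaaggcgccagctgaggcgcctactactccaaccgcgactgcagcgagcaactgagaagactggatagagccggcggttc
Fosb, chr7:19309996-19310295, minus strand: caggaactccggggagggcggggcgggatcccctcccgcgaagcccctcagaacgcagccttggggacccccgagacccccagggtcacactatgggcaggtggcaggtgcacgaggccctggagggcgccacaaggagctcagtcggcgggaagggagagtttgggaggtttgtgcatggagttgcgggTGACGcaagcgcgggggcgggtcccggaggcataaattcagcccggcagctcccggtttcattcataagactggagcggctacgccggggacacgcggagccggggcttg
Jun, chr4:95052173-95052472, minus strand: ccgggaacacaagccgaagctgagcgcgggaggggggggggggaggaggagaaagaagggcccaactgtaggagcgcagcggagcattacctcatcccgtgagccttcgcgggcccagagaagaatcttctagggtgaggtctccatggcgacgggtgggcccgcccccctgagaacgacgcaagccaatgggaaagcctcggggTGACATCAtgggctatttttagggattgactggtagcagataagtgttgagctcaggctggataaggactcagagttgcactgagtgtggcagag
Junb, chr8:84978699-84978998, minus strand: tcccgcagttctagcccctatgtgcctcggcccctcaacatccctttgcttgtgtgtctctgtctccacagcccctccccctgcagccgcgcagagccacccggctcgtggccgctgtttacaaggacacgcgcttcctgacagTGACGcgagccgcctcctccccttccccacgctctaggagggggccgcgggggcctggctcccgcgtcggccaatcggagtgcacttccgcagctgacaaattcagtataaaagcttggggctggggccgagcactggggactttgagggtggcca
Atf3, chr1:191183284-191183583, minus strand: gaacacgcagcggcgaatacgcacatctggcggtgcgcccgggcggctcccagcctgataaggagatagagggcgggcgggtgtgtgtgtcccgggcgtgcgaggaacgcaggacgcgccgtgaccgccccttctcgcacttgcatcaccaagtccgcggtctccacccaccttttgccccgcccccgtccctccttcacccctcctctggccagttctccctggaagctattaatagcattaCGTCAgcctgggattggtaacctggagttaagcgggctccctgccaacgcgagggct

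In Fos, TGACG began at −129 and −66 bases from the start site. In Fosb it began at −60 and in Junb at −106. Atf3 had it on the other strand (CGTCA), beginning at −7, and Jun had TGACATCA at −45. Of all 32851 windows of the same length in the table, 20.8% held TGACG on either strand and 3.62% held TGACATCA, and among the 11 windows of the 9 members with an entry the counts were 7 and 2. Batf was another member with TGACG in its window, and of the 3 windows of Maff 2 held it. The full element TGACGTCA, which contains TGACG on both strands, stood in 1 member window, of Maff, against 1.79% of all windows. The AP-1 motif TGANTCA was in 0 member windows and 7.81% of all, the STAT motif TTCNNNGAA in 1 (Maff) and 8.30% of all, and the CArG box of serum response factor in 0 and 1.63% of all. These matches describe letters in short windows and not binding. Sites farther from the start lie outside them.

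The values are log2 of scaled reads per gene plus a pseudocount of 1. The kit reads the 3′ end of transcripts, so transcript length should weigh little on the values. Levels of different genes are set side by side on that scale only approximately, since the annotation and strand use are not given. Estimated depths were 7520000 to 18300000 reads in STAT3cKO libraries and 7190000 to 16700000 reads in WT libraries. STAT3cKO 2 stood apart in 2 ways: 2617 of the 11536 tested genes had no read in it, against 415 to 1097 in the other STAT3cKO libraries and 83 to 1273 in WT libraries, and it had Xist at 0.06 and Ddx3y at 10.62, while Xist was at 8.65 to 11.01 and Ddx3y at 0.00 to 1.26 in the other 9 libraries. By these 2 sex-linked genes STAT3cKO 2 reads as male and the other 9 libraries as female. The part of sex in the members' levels was not tested. Stat3 itself was at 9.49 to 10.81 in STAT3cKO and 9.08 to 10.29 in WT libraries. Its 3′ reads can come from a transcript without the deleted exons and from cells other than keratinocytes, so this level does not check the ablation.

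Fos, Jun, Junb and Atf3 were higher in every STAT3cKO library than in any WT library, by 6.83, 2.16, 1.77 and 6.01 on the log2 scale. A lack of overlap in this direction was found in 1.71% of all tested genes. Fosb was also higher on average, while Fosl2 and Jund differed by less than 1 and Maff and Batf were not higher. Of the 10 members 8 were tested, and 3 of them, Fos, Jun and Junb, had a limma adjusted p under 0.05. The share with such a p was 0.988% over all tested genes, 0.529% higher and 0.459% lower. The rule for the family used this comparison, so nothing is read from the members' count. Fos, Fosb and Atf3 reached the filter on low values only through their STAT3cKO libraries, and Fosl1 and Batf did not reach it. In whole skin, more transcripts per cell and more cells that carry them cannot be told apart.

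**Figure D1:**
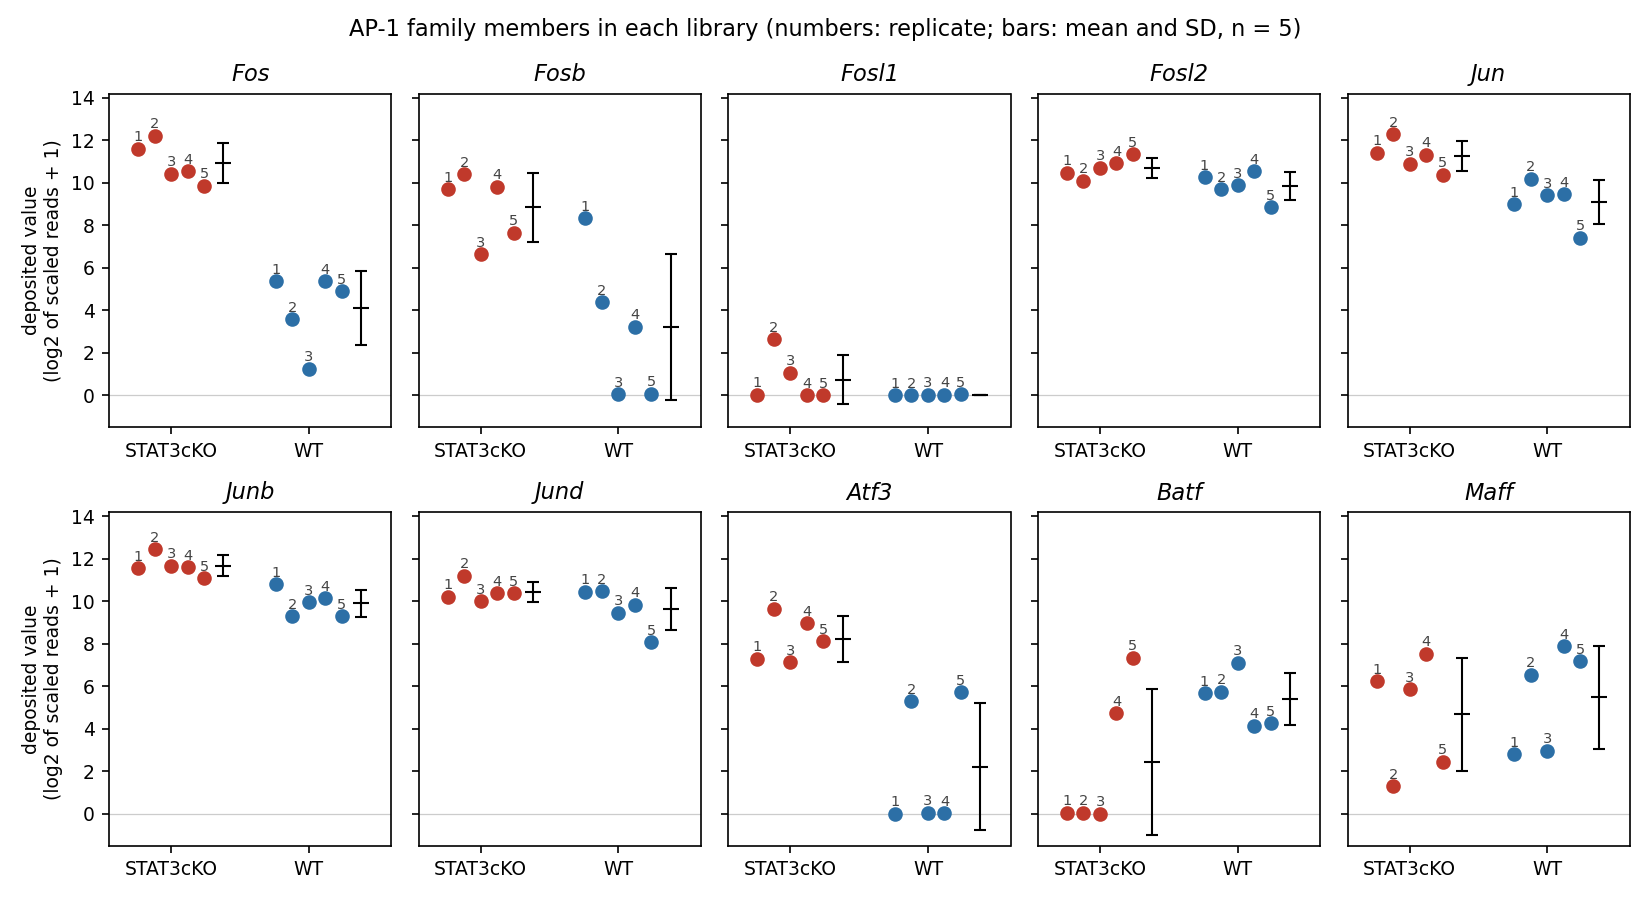
Deposited value (log2 of scaled reads plus 1) of each member in the 5 STAT3cKO libraries (red) and the 5 WT libraries (blue). Numbers are replicates and bars are means with SD. Fos has the widest gap between the groups, with a lowest STAT3cKO value of 9.87 and a highest WT value of 5.38. The groups overlap in Fosb, Fosl1, Fosl2, Jund, Batf and Maff.

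Fos, the founding partner of Jun in AP-1 (chromosome 12, 85473890 to 85477273, plus strand of mm10), had values of 11.60, 12.21, 10.42, 10.54 and 9.87 in STAT3cKO 1 to 5, against 5.38, 3.58, 1.26, 5.38 and 4.89 in WT 1 to 5. In estimated reads these were 2545, 3395, 1277, 2015 and 1646 in STAT3cKO skin and 61, 14, 1, 34 and 19 in WT skin. The lowest STAT3cKO library thus held 1277 reads of Fos and the highest WT library 61. Means were 10.93 ± 0.95 in STAT3cKO and 4.10 ± 1.75 in WT libraries (SD, n = 5 each). The change was 6.83, with an SE of 0.96 and a 95% interval of 4.81 to 8.85. The ratio of the mean scaled reads, which a low WT library moves less, was 95.3. The change was 6.12 to 7.15 in the 10 fits without 1 library, 5.73 in the 4 deeper libraries and 7.57 in the 6 shallower ones.

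Fosb encodes the Fos protein that, with its shorter splice form, is best known from the brain (chromosome 7, 19302696 to 19310051, minus strand). It had values of 9.69, 10.41, 6.65, 9.82 and 7.64 in STAT3cKO 1 to 5, against 8.32, 4.37, 0.06, 3.23 and 0.08 in WT 1 to 5. The groups overlapped because WT 1, with 479 estimated reads, exceeded STAT3cKO 3 and 5, while WT 3 and WT 5 had no read. The change was 5.63 (SE 1.68, 95% interval 2.10 to 9.16), and the ratio of mean scaled reads was 9.74, far below the 49.6-fold of the log2 means. With a pseudocount of 32 the change was 3.09, and in the deeper libraries it was 2.39.

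Fosl1 and Fosl2 encode Fra-1 and Fra-2, Fos-related proteins without the strong activation domain of Fos. Fosl1 (chromosome 19, 5447547 to 5455946, plus strand) had an estimated 4 reads in STAT3cKO 2, 1 read in STAT3cKO 3, and no read in the other 3 STAT3cKO libraries or in any WT library. Its transcript was thus at or near the limit of detection in both groups, and no fold is given. Fosl2 (chromosome 5, 32135801 to 32157842, plus strand) was abundant throughout, from 10.10 to 11.34 in STAT3cKO and from 8.85 to 10.53 in WT libraries. The groups overlapped, with 3 of 5 STAT3cKO libraries above the highest WT library, and the change was 0.87 (SE 0.36, 95% interval 0.11 to 1.63). In the STAT3cKO group Fosl2 ran against Fos: STAT3cKO 2 had the highest Fos and the lowest Fosl2 value of the group, and STAT3cKO 5 had the lowest Fos and the highest Fosl2 value.

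Jun, the prototype of the Jun proteins (chromosome 4, 95049034 to 95052222, minus strand), had values of 11.42, 12.28, 10.89, 11.32 and 10.38 in STAT3cKO 1 to 5, against 8.99, 10.20, 9.41, 9.45 and 7.42 in WT 1 to 5. The groups were separated by 0.18, the distance between STAT3cKO 5 and WT 2. Means were 11.26 ± 0.70 in STAT3cKO and 9.09 ± 1.03 in WT libraries (SD, n = 5 each). The change was 2.16, or 4.48-fold, with an SE of 0.47 and a 95% interval of 1.19 to 3.14. The change was 1.75 to 2.44 in the fits without 1 library, 1.26 in the 4 deeper libraries and 2.77 in the 6 shallower ones.

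Junb, a Jun protein with weaker activation that restrains keratinocyte cytokine production in mice (chromosome 8, 84974484 to 84978718, minus strand), was the most abundant member on average. It had values of 11.55, 12.46, 11.67, 11.59 and 11.09 in STAT3cKO 1 to 5, against 10.81, 9.30, 9.96, 10.14 and 9.29 in WT 1 to 5. The groups were separated by 0.28, with WT 1 nearest to the STAT3cKO libraries. Means were 11.67 ± 0.49 in STAT3cKO and 9.90 ± 0.64 in WT libraries (SD, n = 5 each). The change was 1.77, or 3.41-fold, with an SE of 0.35 and a 95% interval of 1.04 to 2.51. The change was 1.58 to 2.00 in the fits without 1 library, 1.29 in the deeper libraries and 2.09 in the shallower ones.

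Jund, the Jun protein that most cells hold at a steady level (chromosome 8, 70698949 to 70700616, plus strand), ranged from 10.01 to 11.20 in STAT3cKO and from 8.06 to 10.47 in WT libraries. Only STAT3cKO 2 exceeded the highest WT library, and WT 5 was the lowest of all. The change was 0.79 (SE 0.43, 95% interval −0.12 to 1.69). It was −0.07 in the deeper libraries and 1.35 in the shallower ones. Within a library, Jun minus Jund was −0.01 to 1.21 on the log2 scale in STAT3cKO libraries and −1.45 to −0.04 in WT libraries, ranges that nearly touch. Junb minus Jund was 0.69 to 1.66 in STAT3cKO libraries and −1.18 to 1.23 in WT libraries, ranges that overlap.

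Exons of 4 members share bases with a gene on the other strand in GENCODE M21, namely Jun with Junos (232 bases), Junb with Prdx2 (173), Jund with Gm11175 (877) and Fosl1 with Ccdc85b (1163). Use of strand in the counting is not given in the labels, so a part of these values could belong to the partner.

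Atf3, a stress-induced factor that pairs with Jun proteins and represses as a homodimer (chromosome 1, 191170296 to 191218039, minus strand), had values of 7.30, 9.64, 7.13, 8.98 and 8.11 in STAT3cKO 1 to 5, against 0.00, 5.30, 0.06, 0.03 and 5.71 in WT 1 to 5. WT 1, 3 and 4 had no read, WT 2 and 5 had 49 and 34, and the STAT3cKO libraries had 128 to 679 estimated reads. The lowest STAT3cKO library lay 1.42 above the highest WT library. The change of 6.01 (SE 1.67, 95% interval 2.51 to 9.51) rests in part on the WT libraries without a read, since the ratio of mean scaled reads was 20.8 and the change with a pseudocount of 32 was 2.89.

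Batf, a factor of T and dendritic cells that pairs with Jun proteins and with interferon regulatory factors (chromosome 12, 85686669 to 85709087, plus strand), had values of 0.04, 0.06, 0.01, 4.74 and 7.34 in STAT3cKO 1 to 5, against 5.67, 5.74, 7.10, 4.15 and 4.26 in WT 1 to 5. It was thus without a read in 3 STAT3cKO libraries and present in all WT libraries with 12 to 100 estimated reads, but STAT3cKO 5 held 282 reads, more than any WT library. Without the filter its change was −2.95 (SE 1.73, 95% interval −6.63 to 0.74). Maff, a small Maf protein without an activation domain (chromosome 15, 79346621 to 79359076, plus strand), ranged from 1.30 to 7.53 in STAT3cKO and from 2.80 to 7.88 in WT libraries. The ranges nearly coincide, and the change was −0.79 (SE 1.75, 95% interval −4.48 to 2.90). It was 0.05 without STAT3cKO 2 and 0.32 in the deeper libraries.

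**Figure D2:**
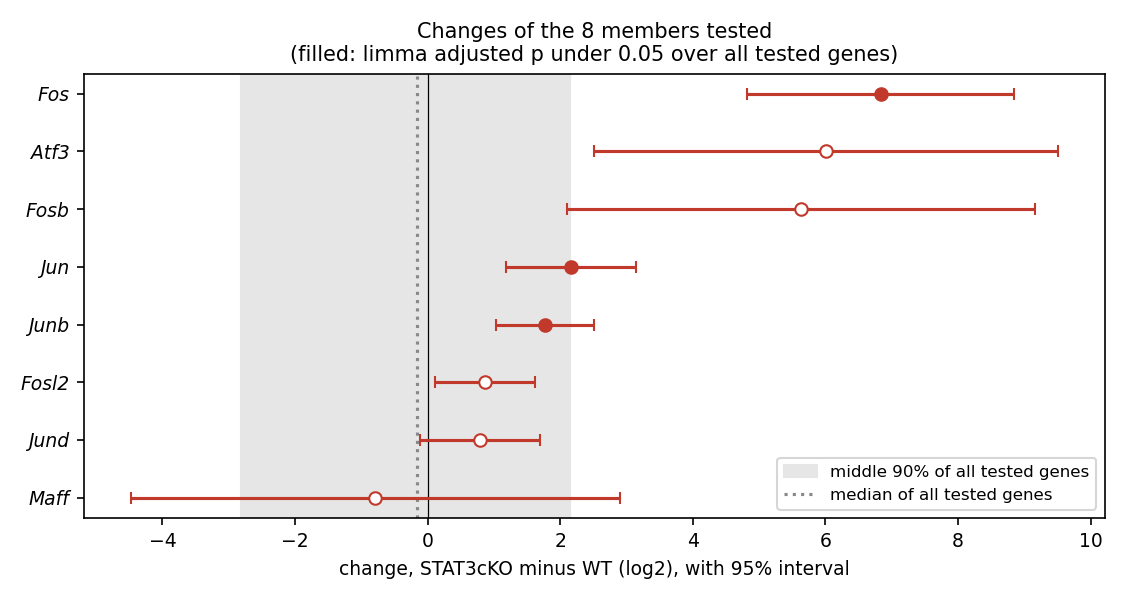
Change of the 8 tested members, STAT3cKO minus WT on the log2 scale, with 95% intervals. Filled points had a limma adjusted p under 0.05 over all tested genes, the grey band spans the 5th to the 95th percentile of all tested genes (−2.82 to 2.15) and the dotted line is their median (−0.16). Fos, Atf3, Fosb and Jun lie beyond the band on the high side, Jun by the smallest margin, and Maff has the widest interval. The members were selected on this difference, so the filled points and intervals are a description only.

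STAT3cKO 2 was the highest library for 7 of the 10 members, Fos, Fosb, Fosl1, Jun, Junb, Jund and Atf3. Without it the 4 members whose groups were separated remained separated, and the changes of Fos, Jun, Junb and Atf3 were 6.51, 1.91, 1.58 and 5.66. WT 5 was the lowest library for 4 members, Fosl2, Jun, Junb and Jund. Without it the changes of Fos, Jun, Junb and Jund were 7.03, 1.75, 1.62 and 0.39.

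The make-up of the family was described by undoing the log and summing the scaled reads of the 10 members. The sum was 9020 to 20930 in STAT3cKO and 1762 to 5328 in WT libraries, without overlap. Fos made up 10.4 to 24.9% of it in STAT3cKO and 0.0404 to 1.63% in WT libraries. Among the 10 members Fos ranked 1, 3, 4, 4 and 5 in STAT3cKO 1, 2, 3, 4 and 5, and between 6 and 9 in WT libraries. Junb held a similar share in both groups, 26.9 ± 4.2% in STAT3cKO and 27.5 ± 8.3% in WT libraries (SD, n = 5 each). The share of Jund was 9.47 to 14.9% in STAT3cKO and 15.1 to 33.3% in WT libraries, and that of Fosl2 was 5.24 to 28.7% in STAT3cKO and 19.5 to 32.7% in WT libraries. Fosl2 exceeded Fos by 3.96 to 8.62 on the log2 scale in each WT library, while Fosl2 minus Fos was −2.11 to 1.47 in STAT3cKO libraries. The Jun genes together held 53.8 to 64.9% of the sum in STAT3cKO and 60.2 to 75.5% in WT libraries.

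**Figure D3:**
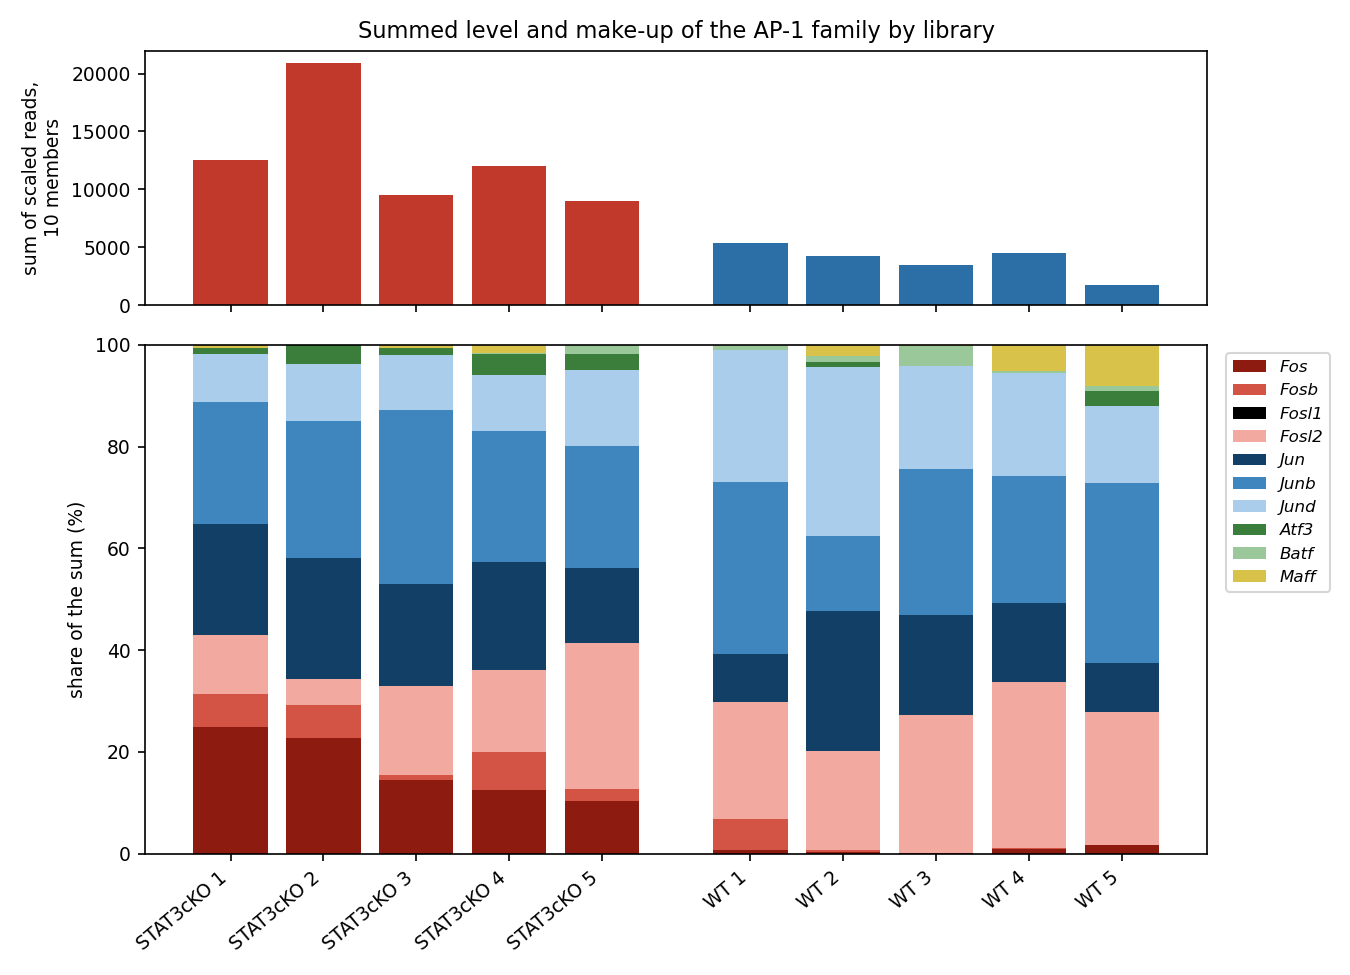
Summed scaled reads of the 10 members (upper panel) and the share of each member in that sum in percent (lower panel) in each library, STAT3cKO on the left and WT on the right. Fos (dark red) takes 10.4 to 24.9% in STAT3cKO libraries and at most 1.63% in WT libraries, and the sum is highest in STAT3cKO 2.

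The members' partners, upstream kinases, feedback inhibitors, targets and regulators were followed in 6 lists with 130 tested genes. Of these 2 passed the test, Dusp1 and Ier3, which is 1.54% against 0.988% of all tested genes. The median change was 0.57 over the 130 genes and −0.16 over all tested genes, and 88 of the 130 had a positive change, against 43.8% of all tested genes. The lists were chosen with earlier results of these data known. These counts and the p-values of listed genes are therefore given as a description. The share that passed is near that of all tested genes.

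Of 16 tested MAP kinase phosphatases and feedback inhibitors 1 rose, 0 fell and 15 did not pass, with a median change of 0.97. The riser was Dusp1, the nuclear phosphatase that switches off p38 and JNK. Its values were 11.33, 12.22, 10.06, 11.28 and 10.97 in STAT3cKO 1 to 5, against 9.73, 9.32, 9.91, 7.81 and 9.17 in WT 1 to 5. The groups did not overlap. Dusp1 was higher by 1.98 in STAT3cKO libraries, with an SE of 0.44 and a limma adjusted p = 0.0339. It missed the threshold without STAT3cKO 1, 2, 4 or 5 or WT 1, 2 or 5, where the change was 1.72 to 2.12 and the limma adjusted p 0.0540 to 0.0924. It also missed it with no filter (limma adjusted p = 0.0689), with no trend and no robust estimation (0.252), without STAT3cKO 2 and WT 3 together (0.0747), and in the deeper (0.0896) and shallower (0.403) libraries. Its exons share 11 bases with Ergic1 on the other strand.

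Of 22 tested immediate early genes outside AP-1 1 rose, 0 fell and 21 did not pass, with a median of 1.04. The riser was Ier3, an early response gene linked to cell survival, with values of 10.61 to 11.53 in STAT3cKO and 8.36 to 9.97 in WT libraries. Its change of 1.92 (SE 0.36, limma adjusted p = 0.0132) kept its call in each of the 10 fits without 1 library. It missed the threshold without STAT3cKO 2 and WT 3 together (1.78, limma adjusted p = 0.0528), with no trend and no robust estimation (0.136), and in the shallower libraries (0.505).

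Of 25 tested bZIP partners outside the family 0 passed, with a median of 0.40. Bach1, a repressor that pairs with small Maf proteins, was at 9.61 ± 0.25 in STAT3cKO and 7.94 ± 0.51 in WT libraries (SD, n = 5 each), a change of 1.66 (limma adjusted p = 0.0701). Bach1 passed in 2 of the 22 alternatives, a filter at a value of 7 (limma adjusted p = 0.0499) and array weights (0.0135). Cebpb, a C/EBP factor of differentiating keratinocytes, was at 10.77 ± 0.81 in STAT3cKO and 9.11 ± 1.08 in WT libraries (SD, n = 5 each), a difference of 1.66 (limma adjusted p = 0.144). Neither gene's groups overlapped.

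Of 32 tested MAP kinases and nuclear activators upstream of AP-1 0 passed, with a median of 0.16. Mapk13, the p38 isoform of differentiating keratinocytes, differed by 2.53 (limma adjusted p = 0.341). Rps6ka2, a kinase downstream of ERK, differed by −3.97 (limma adjusted p = 0.409), with no read in 2 STAT3cKO libraries. In both genes the groups overlapped.

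Of 22 tested genes with described AP-1 sites 0 passed, with a median of 0.82. The lowest p-values were those of the cornified envelope genes Lor, loricrin, and Ivl, involucrin. Lor had a value of 15.75 ± 0.55 in STAT3cKO and 13.79 ± 1.02 in WT libraries (SD, n = 5 each), a difference of 1.96 (limma adjusted p = 0.0618). Ivl had a value of 12.25 ± 0.62 in STAT3cKO and 11.04 ± 0.60 in WT libraries (SD, n = 5 each), a change of 1.21 with a limma adjusted p = 0.114. Lor passed in 7 of the 22 alternatives given below and not in 15, with a limma adjusted p of 0.00595 with array weights and 0.0242 in the deeper libraries. Ivl passed in 2, with array weights (limma adjusted p = 0.0228) and without WT 4 (0.0498). Both genes' groups overlapped, and both genes are also in the suprabasal marker list given below. Of 13 tested genes of ubiquitin and repressor control 0 passed, with a median of −0.09. Ep300, an acetyltransferase that AP-1 recruits, differed by 1.38 (limma adjusted p = 0.0747) with groups that did not overlap, and Hdac3, a corepressor deacetylase, differed by 0.85 (limma adjusted p = 0.413). Ep300 passed in 1 of the 22 alternatives, array weights (limma adjusted p = 0.0148), and Hdac3 in 0.

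**Figure D4:**
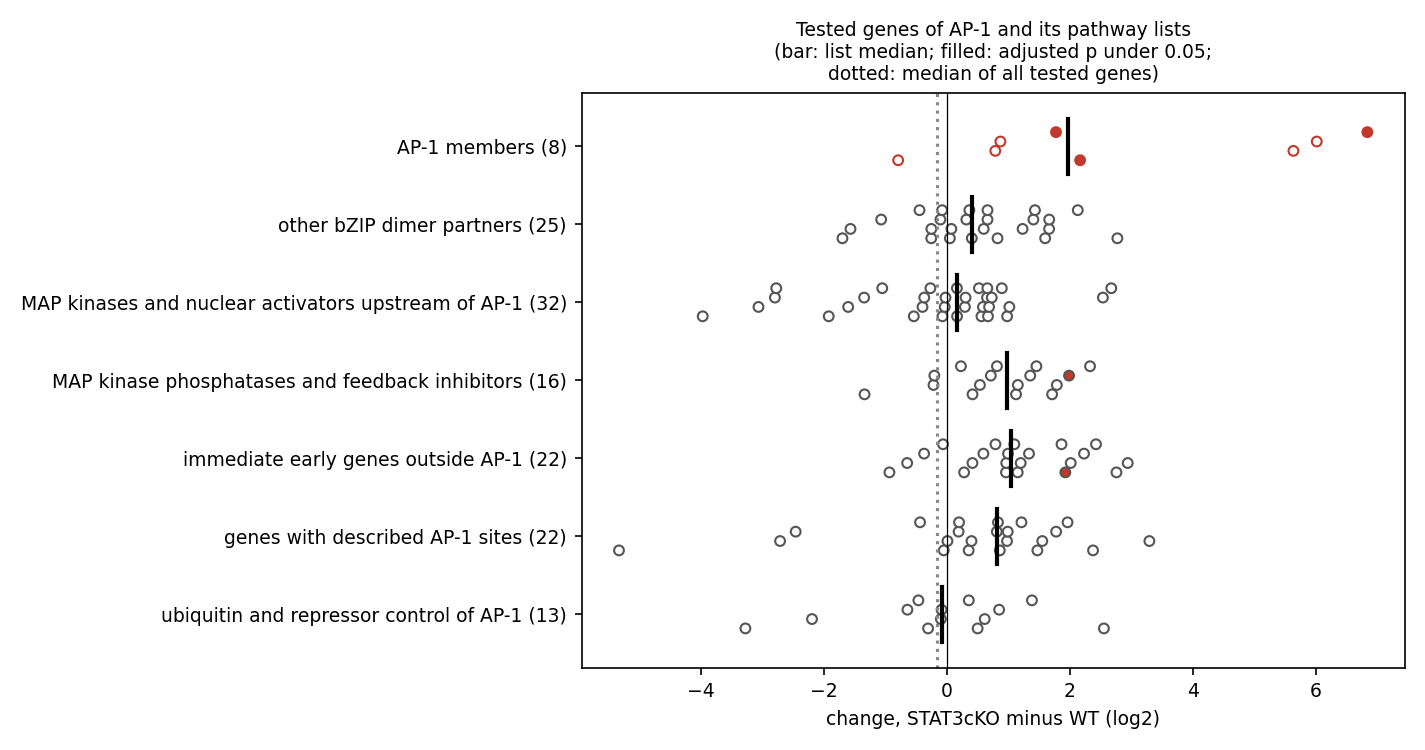
Change of each tested gene, STAT3cKO minus WT on the log2 scale, in the family and in the 6 pathway lists, with the number tested in brackets. Bars are list medians, filled points had a limma adjusted p under 0.05 and the dotted line is the median of all tested genes (−0.16). The lists of feedback inhibitors and other immediate early genes have medians of 0.97 and 1.04, and that of the kinases has 0.16.

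Markers of skin cell types were read in the same libraries. In 11 marker lists, 0 genes lacked reads in every library. Suprabasal keratinocyte genes had a mean value of 13.26 to 14.15 in STAT3cKO and 11.48 to 13.34 in WT libraries, summed scaled reads of 120160 to 219000 in STAT3cKO and 28875 to 136070 in WT libraries, and a positive change in 7 of 7 tested genes. Basal keratinocyte genes had a mean value of 10.04 to 11.62 in STAT3cKO and 9.60 to 10.96 in WT libraries, and a positive change in 7 of 7. Adipocyte genes ran the other way, with a mean value of 8.77 to 12.49 in STAT3cKO and 11.64 to 14.12 in WT libraries, summed scaled reads of 41101 to 240460 in STAT3cKO and 108050 to 632730 in WT libraries, and a positive change in 0 of 8. Skeletal muscle genes had a positive change in 0 of 7, with a median of −1.89, macrophage and monocyte genes in 0 of 8, with a median of −0.68, and sebocyte genes in 2 of 6, with a median of −1.32. Fibroblast genes had a positive change in 3 of 7, with a median of −0.89, and held the 1 marker that passed the test, Dpt, dermatopontin, which was at 11.76 ± 0.53 in STAT3cKO and 13.29 ± 0.64 in WT libraries (SD, n = 5 each; limma adjusted p = 0.0287). Endothelial genes had a positive change in 4 of 6, with a median of 0.28. The part of these shifts in the members' levels was not tested.

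Hair shaft and matrix genes, which skin makes while hair grows, varied widely within both groups. They had a positive change in 6 of 7 tested genes, with a median of 2.05. Their mean value was 10.05, 0.06, 13.51, 0.14 and 9.98 in STAT3cKO 1 to 5 and 1.23, 0.76, 5.05, 14.17 and 2.82 in WT 1 to 5. Where they were almost absent, Fos was at 12.21 and 10.54 in STAT3cKO 2 and 4 and at 5.38 and 3.58 in WT 1 and 2. Where they were highest, Fos was at 10.42 in STAT3cKO 3 and at 5.38 in WT 4. In the remaining libraries Fos was at 11.60 and 9.87 in STAT3cKO 1 and 5 and at 1.26 and 4.89 in WT 3 and 5. The part of hair growth in the Fos levels was not tested. T cell genes, relevant to Batf, had a mean value of 0.31 to 4.28 in STAT3cKO and 2.51 to 4.97 in WT libraries, with 1 of the 5 found in the tables reaching the filter. That gene had a change of −4.16. Neutrophil genes were highest in STAT3cKO 5, at 8.91, the library with the highest Batf and Fosl2 values.

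**Figure D5:**
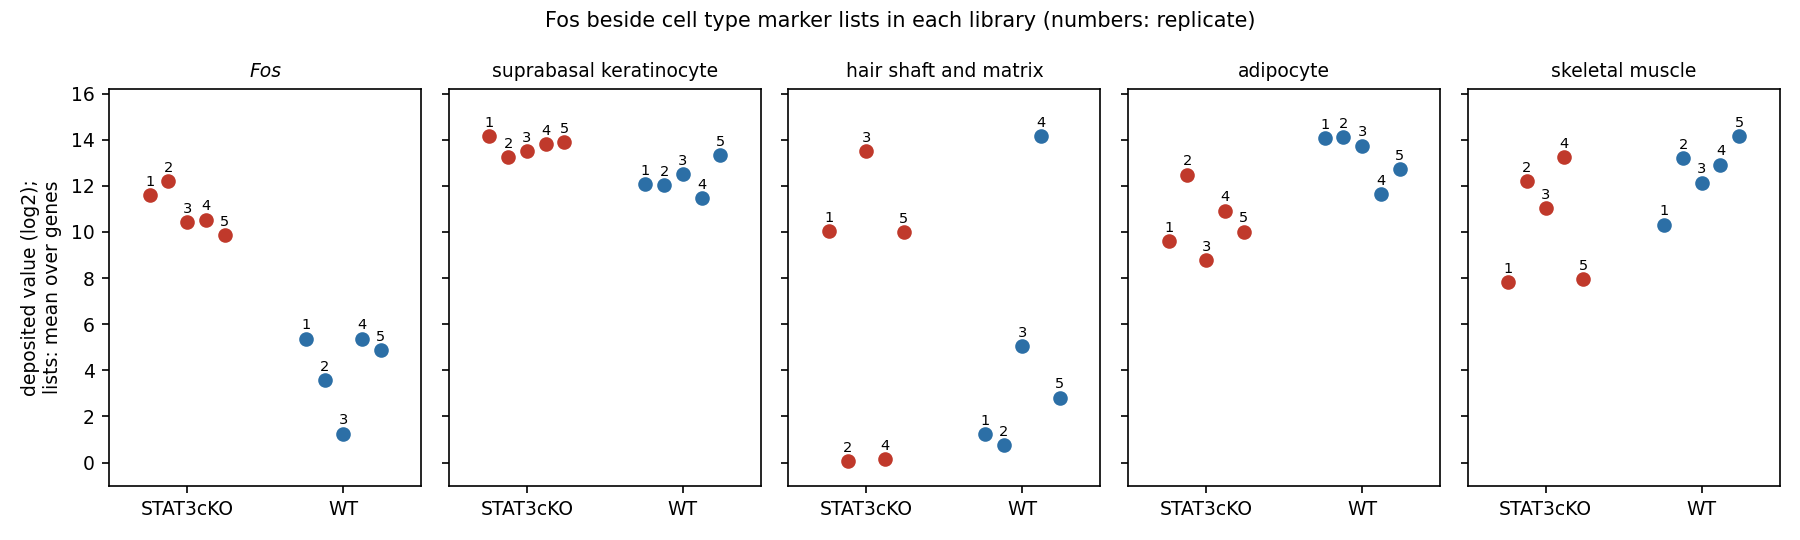
Fos and the mean value of 4 marker lists in each library, on the deposited log2 scale, with STAT3cKO in red and WT in blue and numbers for replicates. Fos separates the groups, while hair shaft and matrix genes are near 0 in STAT3cKO 2 and 4 and highest in STAT3cKO 3 and WT 4, and adipocyte genes overlap between the groups at 11.64 to 12.49.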

How the data were processed

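For each library the authors deposited log2 values by gene symbol, made from total RNA of skin with the Lexogen QuantSeq kit, per the labels' protocols. Per the submitters' processing notes, Bowtie2, bedtools and the build mm10 were used. The sources used here do not give their roles, versions, the annotation, strand use, scaling or duplicate handling. The headers name no unit. Undoing log2 of the value plus 1 gave sums of 9690000 to 11400000 per library and low values at multiples of a step taken as 1 read (90.0 to 100% within 0.15 of a whole read, up to 20 reads). Depth covers counting error only.

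Genes had to reach a value of 5 in 5 or more libraries to enter the test (11536 entries). limma 3.58.1 in R 4.3.3 was fitted with group as the only term, a mean trend and robust estimation, with Benjamini-Hochberg adjustment over all tested genes. Standard errors and 95% intervals come from that fit. The fitting step was run on simulated data, with known changes added to independent normal noise. Such data do not mimic libraries without a read of a gene or an outlying library, so those cases were not checked. Named genes were the members, the called genes of each pathway list (up to 4), or, with 0 called, the 2 with the lowest p, and the 3 genes nearest in pattern to Fos, Jun and Junb. Members and lists were chosen with earlier results of these data known. Positions are from GENCODE M21 on the same build. Alternatives changed the filter, scaling, pseudocount, limma settings, weights, replicate block, depth range and the libraries included.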

Additional observations from a re-analysis of the deposited data

How the results depend on the processing

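Changes of Fos, Fosb, Jun, Junb, Atf3 and Fosl2 kept their sign under all 22 alternatives, over 5.20 to 7.82, 2.39 to 7.79, 1.26 to 2.77, 1.29 to 2.09, 2.89 to 6.88 and 0.62 to 1.16. The change of Jund turned to −0.07 in the deeper libraries, and that of Maff to 0.32 there and to 0.05 without STAT3cKO 2 (−1.51 to 0.05 with 1 library left out). The number of members called, 3 as reported, was 5 with quantile normalization and with a pseudocount of 32 (Fosb and Atf3 added), and 1, Fos, with no trend and no robust estimation, without STAT3cKO 2 and WT 3 together, in the deeper and in the shallower libraries. With 1 library left out it was 2 to 3, since Jun was not called without STAT3cKO 1, 2, 3 or 4 or WT 1 or 3, and Junb not without WT 2. The family was selected on this comparison, so nothing is read from these calls. Genes called over the whole table, 114 as reported, were 181 with quantile normalization, 198 with a pseudocount of 32, 44 with no trend and no robust estimation, 375 with array weights, 174 in the deeper and 16 in the shallower libraries, and 61 to 207 with 1 library left out (61 without STAT3cKO 1, 72 without STAT3cKO 5, 62 without WT 1 or WT 2, 207 without WT 4). With equal library sums 76 were higher and 39 lower, against 61 and 53 as reported. Pathway genes called, 2 as reported, were 1 with no filter, 4 with a filter at a value of 7, 10 with array weights, 0 with no trend and no robust estimation, without STAT3cKO 2 and WT 3 together and in the shallower libraries, and 1 to 5 with 1 library left out. The cause of these shifts was not tested. The subsets also hold fewer libraries, and the part of that was not tested either. Quantile normalization moved the median change of all genes to −0.01, against −0.16 as reported, and equal library sums moved it to −0.05. Relative to the median, Jund and Fosl2 stayed positive with both.

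Same-numbered libraries did not deviate together (correlations of −0.155 to 0.016). This gives no sign that the numbers pair them, but it cannot exclude a pairing. With the replicate block 66 genes and 2 members, Fos and Jun, were called, and the limma adjusted p of Dusp1 was 0.0803. Depth limits Fosl1, Batf, Atf3 and the WT values of Fos and Fosb, where a few reads or none set the log2 value.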

Other observations

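The genes nearest in pattern to a member were found by the root mean square difference of values centred on each gene's own mean over the 10 libraries. For Fos, whose values varied by 3.64 around their mean, they were Mettl17, 3930402G23Rik and Arl5b, at 1.55, 1.77 and 1.80. These 3 genes had mean values of 7.58, 6.73 and 7.31 in STAT3cKO and 0.95, 0.93 and 1.26 in WT libraries, so their likeness to Fos includes WT libraries with few or no reads. For Jun, which varied by 1.34, they were Med16, Rere and Stx17, at 0.56, 0.58 and 0.61. For Junb, which varied by 1.02, they were Spry1, Zfp36 and Canx, at 0.44, 0.47 and 0.49. Spry1, a Sprouty inhibitor of receptor tyrosine kinase signalling, and Zfp36, the RNA-binding protein tristetraprolin, stand in the list of feedback inhibitors. These genes were picked for their likeness to members selected on the group difference, so no test is given for them. Canx encodes an endoplasmic reticulum chaperone.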
